A study of Mus musculus with 14 samples.

Results

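Titin is the giant protein that spans each sarcomere from Z-disc to M-band. The genes described here encode titin itself and 9 proteins linked to titin or to the Z-disc. The 10 genes are Ankrd1, Ankrd2, Ankrd23, Csrp3, Xirp1, Xirp2, Nrap, Flnc, Ky and Ttn. Each was read from the array probe set annotated with that symbol alone. All 10 genes had exactly such a probe set, and 0 had several, among 19938 genes measured. The Z-disc anchors thin filaments of neighbouring sarcomeres and passes force along and across the fibre. Muscle ankyrin repeat proteins sit on the elastic part of titin and can move to the nucleus, and Xin proteins and filamin C gather at sites of damage in the myofibril. These genes are known for responses to stretch, exercise and denervation in skeletal muscle and to pressure overload in the heart.

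The RNA was that of whole plantaris, taken from C57BL/6J males aged 5 months at day 0 and on days 1, 3, 5, 7, 10 and 14 of overload by synergist ablation, the removal of muscles that share the work of the plantaris. Each day had 2 Affymetrix Mouse Gene 1.0 ST arrays, of which 1 held a pool of right muscles and 1 a pool of left muscles, with 6 animals to a pool. The day 0 labels name no treatment, and no sham-operated group is among the 14 arrays, so overload, surgery and elapsed time cannot be told apart. The labels do not say whether right and left pools came from the same animals, so a p-value here reflects the scatter of pools alone, part of which may be technical. Values are log2 intensities, differences are between day means ± SE from a limma fit with 2 pools at each day, and a gene was called higher or lower at an adjusted p under 0.05.

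All 8 skeletal fibre markers (Acta1, Ckm, Mylpf, Tnnt3, Tnni2, Myh4, Pvalb and Atp2a1) were bright in every pool. Their summed intensity was 135274 and 136644 at day 0 and reached its lowest value, 75854, in the right pool of day 7. The single markers did not fall alike. From day 0 to day 7 Acta1 went from 14.38 and 14.40 to 14.11 and 14.20 on the log2 scale. Those values lie close to the highest on any array, 14.85, and the part of this in its small fall was not tested. Tnni2 went from 13.71 and 13.77 to 12.14 and 12.36. Values given below relative to the fibre markers rest on their mean, and the part of a change of fibre type in it was not tested. Summed macrophage marker intensity went from 4591 to 5427 at day 0 to 32402 to 33402 at day 3, and summed fibroblast marker intensity from 17164 to 18318 at day 0 to 53297 to 55533 at day 10. In whole muscle, fewer cells of a type and less RNA per cell cannot be told apart. Hepatocyte marker intensity differed between pools of the same day, at 13367 and 47636 at day 0 and 18919 and 50626 at day 1. The left pool of day 5 also stood apart: all 10 genes were lower there than in the right pool, by a median of -0.31 on the log2 scale. All 8 fibre markers were lower there too, by a median of -0.32, while the median over all genes was 0.02.

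The sequences just upstream of 4 of these genes are shown because their RNA took 4 different courses: Ankrd1 rose and stayed high, Ankrd2 was highest at days 1 and 14 and lowest at day 7, Ky fell, and Xirp2 stayed close to its starting level. Each is the 250 bases before the annotated start, from RefSeq on GRCm38.p6, on the strand of the gene. Capitals mark 3 kinds of match: CATTCC on either strand, the core of the MCAT element that TEAD factors bind; TGACTCA on either strand, an AP-1 site; and the MEF2 consensus.
Ankrd1, chr19:36119845-36120094, minus strand: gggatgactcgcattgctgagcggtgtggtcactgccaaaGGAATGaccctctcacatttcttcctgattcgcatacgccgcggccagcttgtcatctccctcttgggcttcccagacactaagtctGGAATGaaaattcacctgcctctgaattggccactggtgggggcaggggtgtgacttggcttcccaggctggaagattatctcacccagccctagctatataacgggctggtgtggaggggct
Ankrd2, chr19:42035777-42036026, plus strand: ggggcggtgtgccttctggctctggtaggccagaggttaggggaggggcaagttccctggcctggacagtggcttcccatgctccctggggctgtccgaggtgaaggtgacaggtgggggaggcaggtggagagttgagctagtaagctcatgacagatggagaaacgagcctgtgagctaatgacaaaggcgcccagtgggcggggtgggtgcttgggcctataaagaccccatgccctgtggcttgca
Ky, chr9:102505888-102506137, plus strand: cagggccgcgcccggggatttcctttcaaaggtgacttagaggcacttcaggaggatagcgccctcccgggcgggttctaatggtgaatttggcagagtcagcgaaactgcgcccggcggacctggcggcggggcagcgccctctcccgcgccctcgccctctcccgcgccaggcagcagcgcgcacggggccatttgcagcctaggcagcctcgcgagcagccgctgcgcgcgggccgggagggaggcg
Xirp2, chr2:67445752-67446001, plus strand: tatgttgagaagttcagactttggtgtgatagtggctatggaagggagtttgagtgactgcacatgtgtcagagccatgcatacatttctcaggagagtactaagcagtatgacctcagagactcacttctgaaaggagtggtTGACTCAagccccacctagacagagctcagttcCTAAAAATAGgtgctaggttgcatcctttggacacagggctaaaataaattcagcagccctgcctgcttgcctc

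The Ankrd1 window held 2 MCAT cores, both on the opposite strand, at bases -210 to -205 and -123 to -118 from the start. The Xirp2 window held an AP-1 site at -107 to -101 and a MEF2 match at -74 to -65. No letters of these motifs were found in the windows of Ankrd2 and Ky. RefSeq windows were found for 9 of the 10 genes, with 12 windows in all, and Xirp1 was not among them. MCAT cores occurred in 3 of the 12 windows, those of Ankrd1, Ankrd23 and Flnc, and in 12.6% of all 32851 windows of that length. The MEF2 consensus occurred in Xirp2 and Ttn and in 2.92% of all windows, and the AP-1 site in Xirp2 and in 4.46%. The CArG box, which serum response factor binds, was searched as well, with matches in 0 of the 12 windows and in 1.47% of all. The E-box CANNTG, the site of myogenic factors, occurred in 9 of the 12 windows and in 66.2% of all. These matches describe the letters only.

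**Figure D1:**
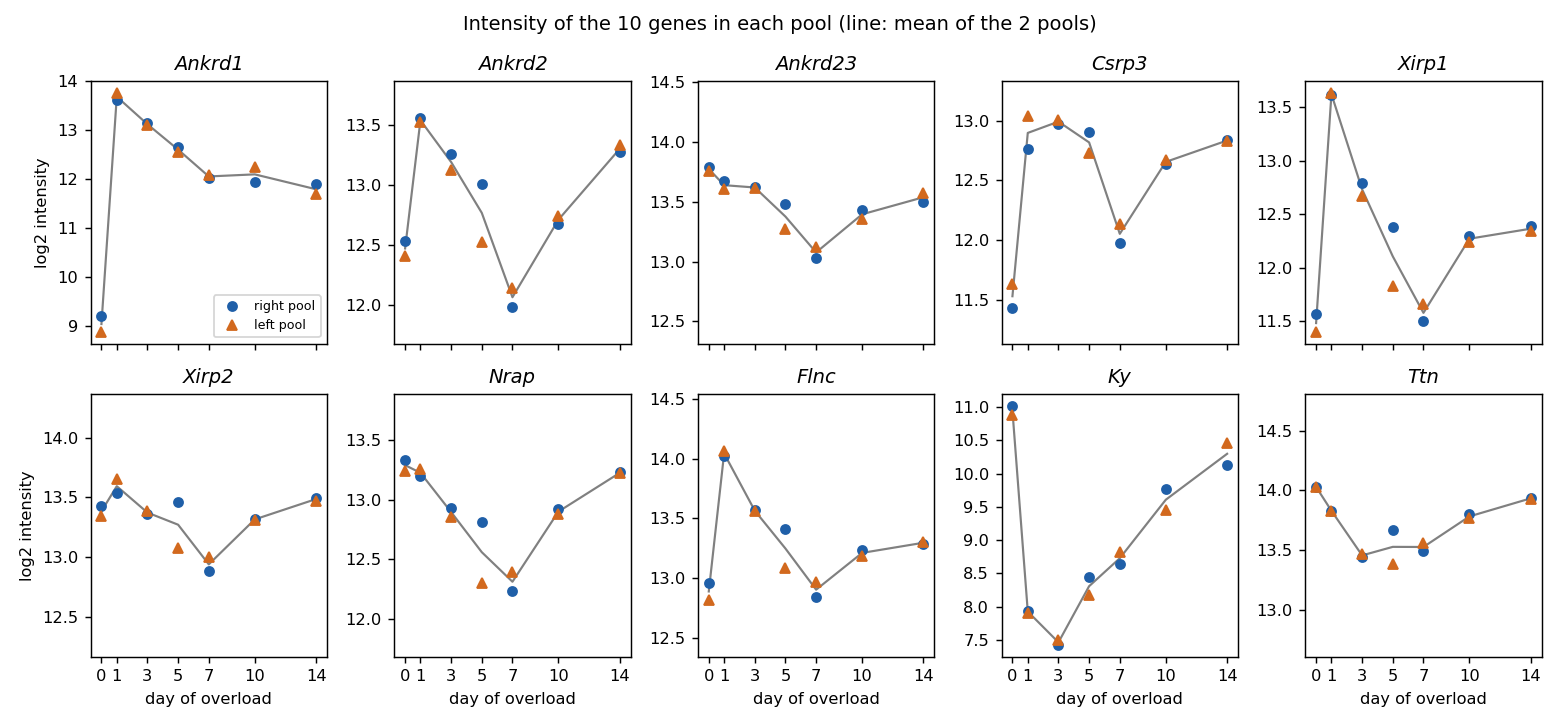
Log2 intensity (vertical axes, which differ in range between panels) against day of overload (horizontal axes) for the 10 genes, with circles for right pools, triangles for left pools and a line through the mean of the 2 pools. Ankrd1 jumped between day 0 and day 1, Ky fell over the same step, and most of the other genes had their lowest or a low value at day 7.

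Over the whole time course each of the 10 genes changed, in limma's moderated F test with Benjamini-Hochberg adjustment, as did 71.3% of all genes. Adjusted p-values ran from 5.14e-09 for Ankrd1 and 2.30e-08 for Ky to 0.00532 for Xirp2. The genes differed in how far they moved. The range of the 7 day means was 4.64 for Ankrd1, 3.48 for Ky, 2.14 for Xirp1, 1.48 for Ankrd2, 1.46 for Csrp3 and 1.16 for Flnc. It was 0.98 for Nrap, 0.70 for Ankrd23, 0.65 for Xirp2 and 0.57 for Ttn. A range over 2-fold was found for 6 of the 10 and for 23.5% of all genes.

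The muscle ankyrin repeat proteins, which share a fold and a binding site on titin, took 3 separate courses. Ankrd1 (also called CARP) is a cofactor of transcription that is low in adult fast muscle and abundant in heart. Its log2 intensity was 9.20 in the right and 8.89 in the left pool at day 0, 13.61 and 13.76 at day 1, 13.15 and 13.10 at day 3, and 12.66 and 12.55 at day 5. It was 12.02 and 12.10 at day 7, 11.95 and 12.25 at day 10, and 11.90 and 11.70 at day 14. All 12 pools of overloaded muscle lay above both day 0 pools. Such a gap at a single day, in either direction, was the usual case. It was found for 71.5% of all genes at day 3, the lowest share, and for 84.7% at day 5, the highest. The share of genes clear of day 0 at every day was not counted. The difference from day 0 was 4.64 ± 0.13 at day 1, a 25.0-fold rise, and still 2.75 ± 0.13 at day 14, a 6.74-fold rise (limma adjusted p = 7.51e-10 and 4.32e-08). Ankrd1 then fell from day 1 to day 3 (-0.56 ± 0.13, limma adjusted p = 0.00524) and from day 3 to day 5 (-0.52 ± 0.13, limma adjusted p = 0.0263). The call from day 3 to day 5 ended without any 1 of the pools of those days, with adjusted p-values from 0.0564 to 0.152. Neither step passed the test relative to the fibre markers, at -0.16 ± 0.15 and -0.40 ± 0.15. The next step, -0.55 ± 0.13 from day 5 to day 7, did not pass the test, and days 7 and 10 overlapped. Between day 1 and day 14 it fell by 1.89 ± 0.13.

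Ankrd2, the ankyrin repeat protein typical of slow fibres and of stretched muscle, moved up, down and up. It stood at 12.53 and 12.41 in the right and left pools at day 0, 13.56 and 13.52 at day 1, 13.26 and 13.13 at day 3, and 13.01 and 12.52 at day 5. The pools of day 7 gave 11.98 and 12.14, those of day 10 gave 12.68 and 12.74, and those of day 14 gave 13.28 and 13.33. Both day 7 pools were below both day 0 pools, and both day 14 pools were above them. Of all genes, 84.4% at day 7 and 72.2% at day 14 had pools clear of day 0 in either direction. Ankrd2 rose at day 1 (1.07 ± 0.13, limma adjusted p = 3.98e-05), at day 3 (0.72 ± 0.13) and at day 14 (0.83 ± 0.13, limma adjusted p = 0.000408). At day 7 it was lower than day 0 by 0.41 ± 0.13 (limma adjusted p = 0.0184), a call that ended without the right pool of day 0 (adjusted p = 0.0934) or of day 7 (adjusted p = 0.119) and under quantile normalization (adjusted p = 0.102). Relative to the fibre markers on the same arrays the day 7 difference turned to 0.44 ± 0.12. Both steps after day 7 passed the test for Ankrd2, with 0.65 ± 0.13 from day 7 to day 10 and 0.59 ± 0.13 from day 10 to day 14. The first lost its call without the right pool of day 7 (adjusted p = 0.0812) or the left pool of day 10 (adjusted p = 0.0574), and was 0.13 ± 0.12 relative to the fibre markers. The second lost it without any 1 of the pools of days 10 and 14, with adjusted p-values from 0.113 to 0.177.

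Ankrd23 (DARP), the ankyrin repeat protein linked to energy metabolism, was not raised at any day in the values as deposited. Its log2 intensity was 13.79 and 13.76 at day 0 and 13.67 and 13.61 at day 1, followed by 13.62 in both pools of day 3 and by 13.48 and 13.27 at day 5. It reached 13.03 and 13.12 at day 7, and then 13.43 and 13.36 at day 10 and 13.50 and 13.58 at day 14. All pools from day 1 on lay below both day 0 pools. At single days 71.5% to 84.7% of all genes had such a gap in either direction. It fell by 0.40 ± 0.08 at day 5, 0.70 ± 0.08 at day 7 (limma adjusted p = 1.77e-05) and 0.38 ± 0.08 at day 10, and the fall of 0.24 ± 0.08 at day 14 was marginal (limma adjusted p = 0.0349). That last call ended without either pool of day 0 or of day 14, with adjusted p-values from 0.0671 to 0.146. Relative to the fibre markers its differences at days 3, 5 and 7 turned positive, at 0.48, 0.35 and 0.15.

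LIM and Xin proteins of the Z-disc and of the junctions between fibre and tendon made up the next group. Csrp3 encodes muscle LIM protein, which binds the titin cap at the Z-disc and is abundant in slow fibres and heart. Its pools gave 11.43 and 11.63 at day 0, 12.76 and 13.04 at day 1, 12.98 and 13.01 at day 3, and 12.90 and 12.73 at day 5. After 11.97 and 12.13 at day 7 they returned to 12.64 and 12.67 at day 10 and to 12.84 and 12.83 at day 14. Every pool from day 1 on lay above both day 0 pools. At single days 71.5% to 84.7% of all genes had such a gap in either direction. Csrp3 rose at all 6 days, by 1.46 ± 0.11 at day 3 (2.75-fold, limma adjusted p = 5.41e-07), by 0.52 ± 0.11 at day 7 (limma adjusted p = 0.00130) and by 1.30 ± 0.11 at day 14 (2.47-fold). In the order of levels days 5 and 14 overlapped, as did days 14 and 1 and days 1 and 3, while both day 3 pools lay above those of days 5 and 14. The dip was a step of -0.77 ± 0.11 from day 5 to day 7 (limma adjusted p = 0.0102), followed by 0.60 ± 0.11 from day 7 to day 10 (limma adjusted p = 0.00386). The dip lost its call without the right pool of day 5 (adjusted p = 0.109) or of day 7 (adjusted p = 0.123), and relative to the fibre markers the return was 0.08 ± 0.12.

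Xirp1 (Xin), which binds actin, nebulin and filamin C and marks fibres under repair, had the second highest rise of the 10 genes. Its values were 11.56 and 11.40 at day 0, 13.61 and 13.63 at day 1, 12.79 and 12.67 at day 3, and 12.38 and 11.83 at day 5. They were 11.50 and 11.66 at day 7, 12.30 and 12.24 at day 10, and 12.38 and 12.34 at day 14. The day 7 pools overlapped those of day 0, and the pools of every other day lay above the day 0 pools. At single days 71.5% to 84.7% of all genes were clear of day 0 in either direction. Xirp1 rose by 2.14 ± 0.14 at day 1 (4.39-fold, limma adjusted p = 3.42e-07), and was still higher at day 5 (0.62 ± 0.14) but not at day 7 (0.10 ± 0.14, limma adjusted p = 0.560). From day 7 to day 10 it rose again, by 0.69 ± 0.14 (limma adjusted p = 0.00796), a call that ended without the right pool of day 7 (adjusted p = 0.0840) or of day 10 (adjusted p = 0.0604), and at day 14 it stood 1.84-fold above day 0 (0.88 ± 0.14). The paralogue Xirp2 (myomaxin) stayed near its starting level. Its pools gave 13.43 and 13.34 at day 0, 13.54 and 13.65 at day 1, 13.36 and 13.38 at day 3, and 13.46 and 13.08 at day 5. The mean of the day 7 pools was 12.94, the lowest of the 7 days, and both lay below every other pool. Day 10 gave 13.32 and 13.31, and day 14 gave 13.50 and 13.47. Its 1 call against day 0 was at day 7 (-0.44 ± 0.11, limma adjusted p = 0.00417), and relative to the fibre markers that difference turned to 0.40 ± 0.11.

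Nrap (nebulin-related anchoring protein), which takes part in building myofibrils and sits where fibres attach to tendon, fell and came back. It was at 13.34 and 13.24 at day 0 and 13.20 and 13.25 at day 1, then at 12.93 and 12.86 at day 3 and 12.81 and 12.31 at day 5. From 12.23 and 12.39 at day 7 it returned to 12.92 and 12.88 at day 10 and to 13.23 and 13.22 at day 14. Nrap fell by 0.98 ± 0.13 at day 7 (limma adjusted p = 6.10e-05), and day 5 gave -0.73 ± 0.13, and at day 14 the difference was -0.06 ± 0.13 (limma adjusted p = 0.713). The falls at days 3 and 10 (both -0.39 ± 0.13) lost their calls when either pool of day 0, or either pool of the day itself, was left out. Relative to the fibre markers none of its 6 differences passed the test, and those at days 3 and 5 turned to 0.24 and 0.02.

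Flnc encodes filamin C, the actin cross-linker that is moved to damaged Z-discs and cleared by chaperone-assisted autophagy. Its pools gave 12.96 and 12.82 at day 0, 14.02 and 14.06 at day 1, 13.57 and 13.56 at day 3, then 13.41 and 13.08 at day 5. They gave 12.84 and 12.97 at day 7, 13.23 and 13.19 at day 10, and 13.29 and 13.30 at day 14. Day 1 was clear of every other day, while day 7 overlapped day 0. Flnc rose by 1.16 ± 0.10 at day 1 (2.23-fold, limma adjusted p = 2.58e-06) and by 0.68 ± 0.10 at day 3, and differed from day 0 by 0.02 ± 0.10 at day 7 (limma adjusted p = 0.898). Its rises of 0.36 at day 5, 0.32 at day 10 and 0.41 at day 14 lost their calls without the left pool of day 0 (adjusted p = 0.0652, 0.119 and 0.0555). The rise at day 5 also ended without the right pool of day 5 (adjusted p = 0.0809) and that at day 10 without either pool of day 10 (adjusted p = 0.0939 and 0.0547).

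Ky (kyphoscoliosis peptidase), a Z-disc protein that interacts with filamin C and whose loss in mice causes a muscle and spine disease, went the opposite way. It stood at 11.02 and 10.88 at day 0, 7.94 and 7.91 at day 1, 7.43 and 7.50 at day 3, and 8.45 and 8.17 at day 5. It then climbed to 8.64 and 8.82 at day 7, 9.77 and 9.45 at day 10, and 10.14 and 10.46 at day 14. No 2 neighbouring days in the order of levels overlapped, and all 12 pools of overloaded muscle lay below both day 0 pools. At single days 71.5% to 84.7% of all genes were clear of day 0 in either direction. Ky fell by 3.02 ± 0.14 at day 1 and by 3.48 ± 0.14 at day 3, an 11.2-fold fall in measured intensity (limma adjusted p = 8.68e-09). The day 3 intensities, 172.1 and 181.4, lay below the median of every array, and no detection call was used here, so the fold is one of measured intensities, background included. Those of day 1, 246 and 241, lay near the array medians of 242.8 to 254.9. The same limit therefore holds for the fall at day 1 and the step from day 1 to day 3. The fall had narrowed to 1.34 ± 0.14 at day 10 and 0.65 ± 0.14 at day 14 (limma adjusted p = 0.00307). Of the steps between consecutive sampled days from day 3 on, those to day 5 (0.84 ± 0.14), to day 10 (0.88 ± 0.14) and to day 14 (0.69 ± 0.14) passed the test, and that from day 5 to day 7 (0.42 ± 0.14) did not. The step to day 14 lost its call without the left pool of day 10 (adjusted p = 0.185) or of day 14 (adjusted p = 0.168). Ky was still lower relative to the fibre markers at all 6 days, with -2.85 ± 0.13 at day 3 and -0.47 ± 0.13 at day 14.

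Ttn itself moved least. Its pools gave 14.03 and 14.03 at day 0, 13.83 and 13.83 at day 1, and 13.44 and 13.47 at day 3. The values of day 5 were 13.67 and 13.38, those of day 7 were 13.50 and 13.56, those of day 10 were 13.80 and 13.77, and those of day 14 were 13.94 and 13.93. Every pool from day 1 on was below both day 0 pools. At single days 71.5% to 84.7% of all genes had such a gap in either direction. Ttn fell by 0.57 ± 0.09 at day 3 (limma adjusted p = 0.000175) and by 0.50 ± 0.09 at days 5 and 7, and the difference was -0.10 ± 0.09 at day 14 (limma adjusted p = 0.391). The fall of 0.25 ± 0.09 at day 10 lost its call without either pool of day 0 or of day 10, with adjusted p-values from 0.0905 to 0.122. Relative to the fibre markers the differences turned to 0.06, 0.25, 0.35 and 0.08 at days 3, 5, 7 and 10. The array gives 1 value for all titin isoforms, and that value lies close to the highest on any array, 14.85.

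**Figure D2:**
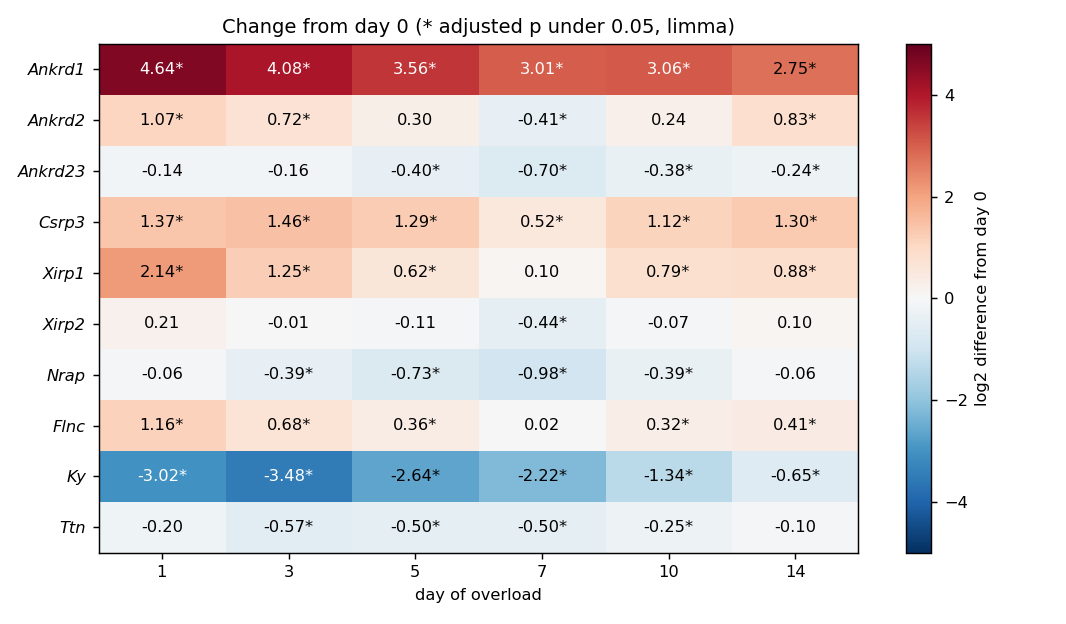
Log2 difference from day 0 for each gene (rows) at each day (columns), with red for higher and blue for lower than day 0 and an asterisk where the limma adjusted p was under 0.05. Ankrd1 and Csrp3 are higher at all 6 days, Ky is lower at all 6 days, and Ankrd23, Nrap and Ttn have falls and no rises.

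Counted by day, rises outnumbered falls at days 1, 3 and 14 and falls outnumbered rises at day 7 in the values as deposited. With a 2-fold minimum day 7 had 1 of each. Relative to the fibre markers it had 7 rises and 1 fall, against 84.2% and 3.63% of all genes on that scale. At day 1, 5 of the 10 genes rose and 1 fell, against 20.3% of all genes higher and 34.7% lower, 55% in all, and the median difference was 0.64 against -0.14 over all genes. At day 3, 5 rose and 3 fell (24.2% and 23.4% of all genes, 47.7% in all), with a median of 0.33 against -0.07. At day 5, 4 rose and 4 fell (27% and 38.1% of all genes, 65.1% in all), with a median of 0.09 against -0.16. At day 7, 2 rose, Ankrd1 and Csrp3, and 6 fell (28.5% and 37.8% of all genes, 66.2% in all), with a median of -0.43 against -0.15. At day 10, 4 rose and 4 fell (23.6% and 27.5% of all genes, 51.1% in all), with a median of 0.09 against -0.11. At day 14, 5 rose and 2 fell (21.4% and 20.7% of all genes, 42.1% in all), with a median of 0.25 against -0.08. The 5 that were higher at day 14 were Ankrd1, Ankrd2, Csrp3, Xirp1 and Flnc. All 6 comparisons share the day 0 pools.

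The count of falls was the less stable part. At day 10 it was 2 rather than 4 without either pool of day 0 or of day 10, and at day 14 it was 1 rather than 2 without either pool of day 0 or of day 14. When the day 0 left pool and day 1 right pool, those with the most hepatocyte signal, were both left out, 5 genes still rose and 1 fell at day 1. With a 2-fold minimum added, 5 rose and 1 fell at day 1 (6.12% and 3.17% of all genes) and 3 rose and 1 fell at day 3 (7.52% and 4.3%). On that rule 2 rose and 1 fell at day 5 (8.64% and 4.29%), 1 rose and 1 fell at day 7 (9.68% and 5.58%), 2 rose and 1 fell at day 10 (6.69% and 2.55%), and 2 rose and 0 fell at day 14 (4.9% and 1.29%).

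The steps into and out of day 7 were looked at because that day held the lowest mean of 4 of the genes (Ankrd2, Ankrd23, Xirp2 and Nrap). From day 5 to day 7, 2 genes fell, Ankrd2 and Csrp3, and 0 rose, against 0.487% and 0.667% of all genes, 1.15% in all, and the median difference was -0.34 against 0.01 over all genes. This count rests on the day 5 pools: with the left one left out it was 7, and with the right one left out it was 0. It was also 0 without the right pool of day 7, 1 without its left pool, 1 without any single pool of days 3, 10 or 14, and 3 without either pool of day 0. From day 7 to day 10, 7 genes rose and 0 fell, against 6.95% and 9.52% of all genes, 16.5% in all, and the median difference was 0.48 against 0.02. Ky (0.88 ± 0.14), Xirp1 (0.69 ± 0.14) and Ankrd2 (0.65 ± 0.13) rose most, while Ankrd1 (0.04 ± 0.13), Flnc (0.31 ± 0.10) and Ttn (0.26 ± 0.09) did not pass the test. The count was 2 without the right pool of day 7, and 3 without either pool of day 10. With side as a replicate block the call of Xirp2 was lost (adjusted p = 0.0504), as it was with equal array medians (adjusted p = 0.0557) and quantile normalization (adjusted p = 0.0647).

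Skeletal fibre markers made the same step. From day 7 to day 10 all 8 rose, with a median of 0.50, and 6 of the 8 macrophage markers fell, with a median of -0.42. With values taken relative to the fibre markers, a scaling added after the data were seen, Ky was the 1 gene of the 10 that was higher at day 10 than at day 7, and Ankrd1 (-0.48) and Ttn (-0.27) were lower. On that scale 0.622% of all genes were higher and 81.8% lower, with a median of -0.50. The part of the fibre share of the RNA in the day 7 dip was not tested beyond this scaling.

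**Figure D3:**
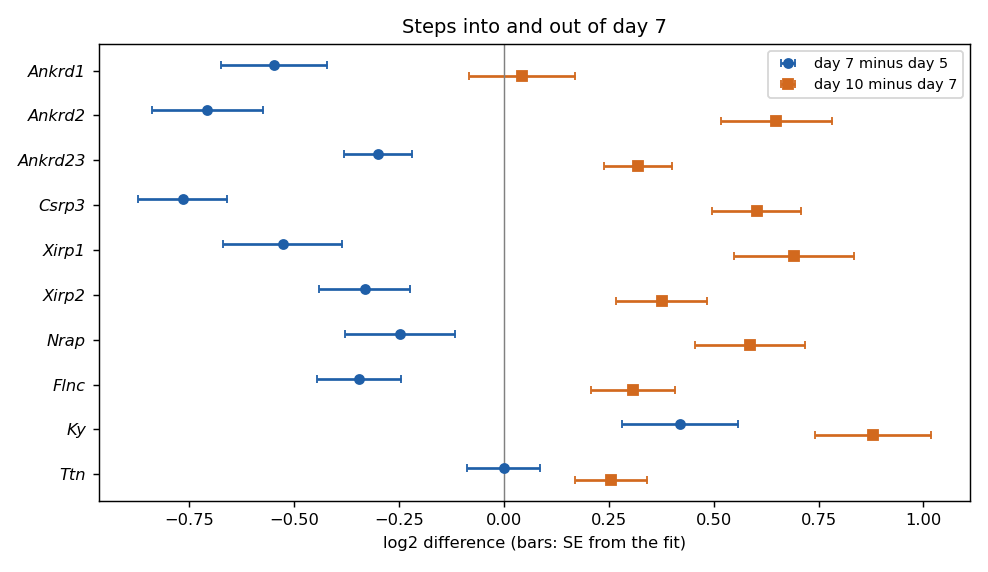
Log2 difference (horizontal axis) of each gene (vertical axis) from day 5 to day 7 (circles) and from day 7 to day 10 (squares), with bars for the SE from the fit. Ankrd2 and Csrp3 have steps of opposite sign that both passed the test, Ky is above 0 at both steps, and Ankrd1 stays near 0 in the second.

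From day 1 to day 3, 5 genes fell and 0 rose, against 13.2% and 21.5% of all genes, 34.7% in all: Ankrd1, Xirp1 (-0.89 ± 0.14), Flnc (-0.48 ± 0.10), Ky and Ttn (-0.37 ± 0.09). That count was 8 without either pool of day 5 and 4 without either pool of day 1 or day 3. The Ky step lost its call without any 1 of the pools of days 1 and 3, with adjusted p-values from 0.0622 to 0.119. Xirp1 alone fell relative to the fibre markers, and Ankrd23 (0.39) and Csrp3 (0.50) rose. On that scale 69.8% of all genes were higher at this step and 2.94% lower, with a median of 0.49, so a rise there was the usual case. From day 3 to day 5, 2 fell, Ankrd1 and Xirp1, and 1 rose, Ky (4.74% and 6.41% of all genes, 11.2% in all). The count of falls was 0 without either day 3 pool or the left day 5 pool, and 5 without the right day 5 pool. From day 10 to day 14, Ankrd2 and Ky rose and 0 fell (2.11% and 2.56% of all genes, 4.67% in all), and the count of rises was 0 when the left pool of either day was left out and 1 when the right pool was. Between days 1 and 14, Ankrd1, Xirp1 (-1.25 ± 0.14) and Flnc (-0.75 ± 0.10) fell and Ky rose by 2.37 ± 0.14 (16.2% and 25% of all genes, 41.2% in all). Ankrd2 (-0.24 ± 0.13) and Csrp3 (-0.06 ± 0.11) did not pass that test.

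The scaling decided how many of the 10 genes were called lower. The mean change of the fibre markers was -0.23, -0.63 and -0.75 at days 1, 3 and 5, and -0.85, -0.32 and -0.18 at days 7, 10 and 14. Relative to them, 7 genes rose and 1 fell at day 3, 8 and 1 at day 5, and 7 and 1 at day 7, and the fall was that of Ky each time. On that scale 77.2%, 77.3% and 84.2% of all genes were higher at those days, with medians of 0.57, 0.59 and 0.70, so a rise there is the usual case. Ankrd1 (3.86 ± 0.15), Csrp3 (1.37 ± 0.12), Xirp1 (0.94 ± 0.12) and Flnc (0.86 ± 0.11) exceeded that day 7 median, and Ankrd2, Xirp2, Ttn, Ankrd23 and Nrap did not. Macrophage, fibroblast and myogenic precursor markers moved with these differences too: 8 of 8, 5 of 6 and 7 of 7 were higher at day 7, and their part in the results was not tested.

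**Figure D4:**
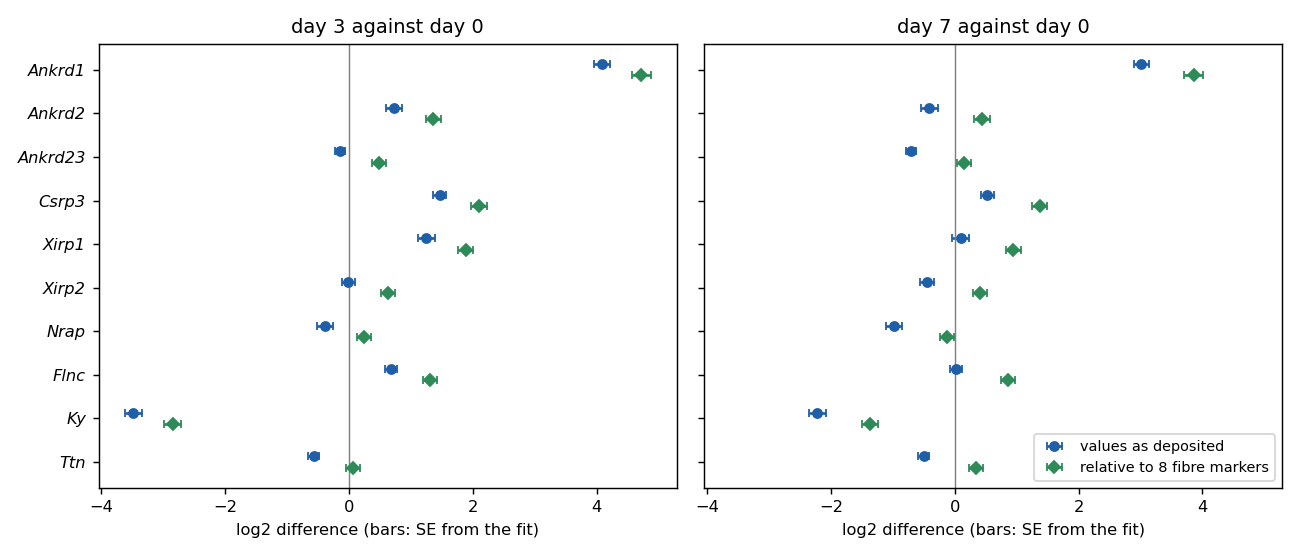
Log2 difference from day 0 (horizontal axes) of each gene (vertical axis) at days 3 and 7, as deposited (circles) and relative to the mean of 8 fibre markers on the same array (diamonds), with bars for the SE from the fit. Diamonds lie to the right of circles for every gene, and for Ankrd23, Xirp2 and Ttn the sign differs at both days.

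Left and right pools did not differ as such in these genes. In a fit with day and side, 0 of the 10 genes were called, 0 had an unadjusted p under 0.05, and the left minus right difference lay between -0.11 for Xirp1 and 0.08 for Csrp3. Over all genes limma called 0 of 19938, with 586 at an unadjusted p under 0.05. Within a day the gaps followed those of the fibre markers at days 5 and 7. At day 7 all 10 genes were higher in the left pool, by a median of 0.14, as were all 8 fibre markers, by a median of 0.15.

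Closest to each other in course were Ankrd23 and Xirp2. Likeness was measured as the root mean square difference of the 7 day means after each gene was centred on its own mean, and it was 0.117 on the log2 scale for that pair, the smallest of 45 pairs. It is not scaled to the range, so genes that moved little come out close, and these had ranges of 0.70 and 0.65. Named after its value was seen, Ptf1a, from outside the group, was nearer to Ankrd23 (0.0395) than Xirp2 was. Among genes outside the group, Ankrd1 was most like Fcgr4 (0.300), Lilr4b (0.327) and Lilrb4a (0.354), receptors of myeloid cells. Those 3 genes stood 4.18, 4.72 and 4.22 above day 0 at day 1. The macrophage markers were also above day 0, 7 of 8 at day 1 and 8 of 8 at day 14, with a summed intensity of 20467 and 22098 at day 1 and 16160 and 17231 at day 14. From day 1 to day 3, 6 of the 8 markers rose and 1 fell (median 0.83), and Ankrd1 fell by 0.56. From day 7 to day 10, 6 of 8 fell (median -0.42), and Ankrd1 changed by 0.04. Single markers took different courses. Cd14, named after its values were seen, read 7.01 and 7.28 at day 0 and 10.04 and 10.70 at day 1. It then read 9.34 and 9.49 at day 3 and 7.87 and 8.03 at day 14. The part of these markers in the Ankrd1 result was not tested. Ky was most like Retnla (0.258), Lrrc30 (0.318) and Ddit4l (0.328). Xirp1 was most like Il33 (0.227), Adamts1 (0.242) and Btg2 (0.243), Ankrd2 like Rcan1 (0.181), Gpr4 (0.238) and Lmcd1 (0.239), and Csrp3 like Enah (0.191), Gprc5b (0.214) and Mustn1 (0.224). Chosen after its values were seen, nebulin (Neb), the thin filament ruler, was the gene nearest to Ttn, at 0.0357. Tpm1 (0.0393) and H2bc4 (0.0447) came next, and Ttn had the smallest range of the 10 genes.

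Other genes of the same structures had more falls than rises at days 1 and 7. Of 20 Z-disc scaffold genes, 1 rose and 18 fell at day 1 (20.3% and 34.7% of all genes), 1 rose and 17 fell at day 7 (28.5% and 37.8%), and 4 rose and 9 fell at day 14 (21.4% and 20.7%), with medians of -0.59, -0.84 and -0.23. The median of the fibre markers was -0.13, -0.81 and -0.17 at those days. The titin cap gene Tcap (-2.44 ± 0.16 at day 7) and the actin-binding Sorbs2 (-1.38 ± 0.08 at day 1) fell most, and Palld (0.82 ± 0.08 at day 7), a scaffold of actin bundles, rose most. Desmin (Des), the intermediate filament that links Z-discs, named after its values were seen, was at most 0.13 below or 0.05 above day 0 at each day and never passed the test. At day 14 the calsarcin Myoz2 (0.51 ± 0.11), typical of slow fibres, led the rises and Fhl3 (-0.92 ± 0.09) the falls.

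Among 17 measured partners of titin, nebulin and the M-band, 3 rose and 9 fell at day 1, 3 rose and 12 fell at day 7, and 4 rose and 6 fell at day 14, against the same shares of all genes. The share of rises at day 1 was near that of all genes. Trim63 (MuRF1), a ubiquitin ligase at the M-band part of titin, rose at day 1 (1.77 ± 0.09), and its relative Trim55 fell (-1.50 ± 0.09). The rise of Trim63 did not last. Its log2 intensity was 11.31 and 11.13 at day 0, 9.99 and 9.91 at day 7, and 10.42 and 10.49 at day 14. The LIM protein Fhl2 rose at day 7 (2.08 ± 0.12) and day 14 (1.38 ± 0.12), while the ligase Trim54 fell at both (-1.69 ± 0.12 and -0.80 ± 0.12).

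Genes that hold and clear filamin C were mixed. Of 9 such genes, which include the Ky partner Igfn1, 5 rose and 2 fell at day 1 (20.3% and 34.7% of all genes), 2 rose and 3 fell at day 7 (28.5% and 37.8%), and 4 rose and 1 fell at day 14 (21.4% and 20.7%). The small heat shock protein Hspb8 (1.24 ± 0.07) led at day 1, and its cochaperone Bag3 was lower at day 7 (-0.68 ± 0.08). Igfn1, which binds Ky and filamin C, fell at day 1 (-0.40 ± 0.10) and rose at day 7 (0.81 ± 0.10) and day 14 (1.68 ± 0.10). The ubiquitin ligase Stub1 fell at day 1 (-0.49 ± 0.08) and day 14 (-0.32 ± 0.08).

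Paralogues of the 10 genes that are not specific to striated muscle were higher at day 7. All 4 measured, the filamin Flna, the LIM genes Csrp1 and Csrp2 and the nebulin relative Lasp1, were higher at days 3 to 14, with a median of 1.69 at day 7 against -0.15 over all genes, of which 28.5% were higher. At day 7, 8 of 8 macrophage markers (median 2.54) and 5 of 6 fibroblast markers (median 2.18) were higher as well and all 8 fibre markers lower, and their part in this result was not tested. Csrp2 had the largest rise, 3.19 ± 0.13 at day 7 and 2.22 ± 0.13 at day 14, and Lasp1 led at day 1 (1.15 ± 0.08). At day 7 Csrp3 stood at 0.52 ± 0.11 and Flnc at 0.02 ± 0.10.

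Ankrd1 is a known target of YAP and TEAD, the factors that read out stretch of the cytoskeleton. Of 15 genes of these factors, of their targets and of serum response factor, 4 rose and 7 fell at day 1 (20.3% and 34.7% of all genes), 9 rose and 3 fell at day 7 (28.5% and 37.8%), and 7 rose and 4 fell at day 14 (21.4% and 20.7%). The targets Ccn1 (1.89 ± 0.10 at day 1) and Ccn2 (1.34 ± 0.07 at day 14) were higher, and the cofactor Vgll3 rose by 1.86 ± 0.10 at day 7. Tead1 (-0.67 ± 0.08 at day 1), the muscle cofactor Vgll2 (-1.11 ± 0.10 at day 7) and Srf (-0.54 ± 0.08 at day 14) fell. Over the 5 lists, 16 of 65 genes rose and 36 fell at day 1, and 23 rose and 20 fell at day 14, and the count of falls at day 14 was 13 without its right pool. Relative to the fibre markers the falls were fewer, 23 at day 1, 10 at day 7 and 8 at day 14, and 42 genes were higher at day 7 rather than 19. On that scale 10.1%, 3.63% and 5.34% of all genes were lower at those days, and 84.2% were higher at day 7.

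Several of the 10 genes are also abundant in heart, so cardiac markers were examined. Of 6 such markers, 1 rose at each day, and it was Nppb at day 1 (1.26 ± 0.14) and Myl4, a light chain of atrial and developing muscle, from day 3 on (2.68 ± 0.08 at day 7). The other cardiac genes had falls or no call at each day. At day 1 the median of the list was -0.40, with 5 of 6 lower, against 34.7% of all genes. The median at day 7 was -0.35, with 3 of 6 lower, against 37.8%. The dimmest marker of the list read 144.6 and 143 at day 7, under the array medians of 242.8 to 254.9, so falls of dim markers include background. The summed intensity of the list, 3197 and 3266 at day 0 and 13755 and 14336 at day 7, followed Myl4, whose own log2 intensity went from 10.99 and 11.02 to 13.65 and 13.71.

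**Figure D5:**
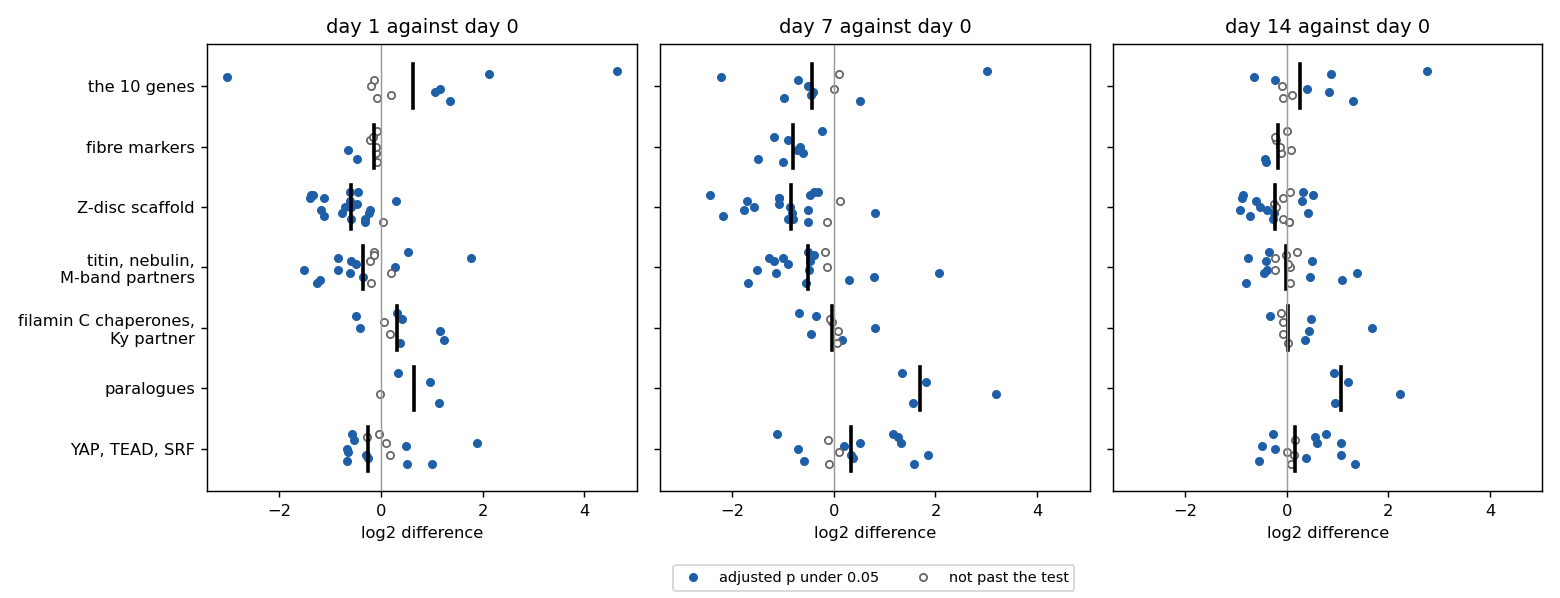
Log2 difference from day 0 (horizontal axes, the same range in each panel) of single genes in 7 lists at days 1, 7 and 14, with filled circles for a limma adjusted p under 0.05, open circles for genes that did not pass, and black bars for each list's median. At day 7 the medians are -0.84 for the Z-disc scaffold, -0.43 for the 10 genes and 1.69 for the paralogues.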

How the data were processed

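What the authors deposited is a linear intensity for every probe set on each array, made with Partek per the submitters' processing notes; the summarising and normalizing method is not given in the sources used here. Intensities ran from 5.9 to 29501.5 and array medians from 242.8 to 254.9; precision is limited by having 2 arrays a day. Of 35556 probe sets, 21789 carried 1 gene symbol, 1621 several and 12146 none listed, and the brightest probe set of each gene was used. Fits used limma 3.58.1 (R 4.3.3) on log2 intensity, all 14 arrays, a mean for each day, 7 residual degrees of freedom and 12 contrasts, two-sided, with Benjamini-Hochberg adjustment over all 19938 genes within each contrast.

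Genes were named by rule: the 10 members, the largest rise and fall of each list at days 1, 7 and 14, and the 3 nearest genes in course for the 5 members with the largest range. The members and lists were chosen with earlier results of these data known. Markers named beside a result come from lists of fibre, cardiac, macrophage, fibroblast, smooth muscle, endothelial, myogenic precursor and hepatocyte genes. At day 7, 3 of 6 smooth muscle markers were higher and 3 lower, and 3 of 5 endothelial markers were higher and 2 lower. Of 7 hepatocyte markers, 0 rose and 6 fell at day 7.

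Alternatives were quantile normalization, equal array medians, an offset of 16, leaving out the dimmest of 3 classes of genes, averaging probe sets, other variance priors, side as a block, 2-day fits, a 2-fold minimum and leaving out arrays. Leaving out a pool leaves its day with 1 pool, which is assumed to vary like the other days. Values relative to the mean of 8 fibre markers were added after the data were seen. The fit was tested on simulated data, for day 3 against day 0. It recovered 68% of 50 genes changed 1.5-fold and 100% of 50 genes changed 2-fold, so smaller changes can be missed. Figures were drawn with matplotlib 3.10.9.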

Additional observations from a re-analysis of the deposited data

Results flagged for a closer look

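In 5 cases the right pool and the left pool moved from day 0 in opposite directions; with 1 pool per side and day the difference was not tested. Xirp1 at day 7 stood -0.07 from day 0 in the right pools and 0.26 in the left. Xirp2 at day 3 stood at -0.06 in the right pools and 0.04 in the left, and at day 5 at 0.04 in the right and -0.26 in the left. Nrap at day 1 stood at -0.14 in the right pools and 0.01 in the left. Flnc at day 7 stood at -0.12 in the right pools and 0.15 in the left. None of these 5 differences from day 0 passed the test with both pools, in limma's fit over all genes.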

How the results depend on the processing

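Of the single differences of the 10 genes, over all alternatives, 2877 kept direction and call, 154 lost the call, 70 gained one and 19 reversed. Many of the 2877 could not have changed direction. Averaging probe sets leaves these differences as they are, since 0 of the 10 genes had several. Leaving out a pool does the same in comparisons without its day. The total is therefore no measure of how firm the results are. Reversals came only from scaling to the fibre markers, chosen after the data were seen: Ankrd1 from day 7 to 10 (-0.48), Ankrd2 at day 7 (0.44), Ankrd23 at days 3, 5 and 7 (0.48, 0.35, 0.15) and at the steps to days 3 and 10 (0.39, -0.20), Xirp2 at days 3, 5 and 7 (0.62, 0.64, 0.40) and to day 10 (-0.15), Nrap at days 3 and 5 (0.24, 0.023), and Ttn at days 3, 5, 7 and 10 (0.060, 0.25, 0.35, 0.078) and at the steps to days 3 and 10 (0.034, -0.27). On that scale members lower became 1 at each of days 3, 5, 7, 10 and 14, members higher 8 at day 5 and 7 at day 7, and the steps had 2 higher and 1 lower to day 3, 1 lower to day 5, 1 higher and 2 lower to day 10 and 0 higher to day 14. Context genes lower became 23, 14, 11, 10, 10 and 8 at days 1 to 14, and higher 37, 41, 42 and 31 at days 3, 5, 7 and 10. Of all genes, 10.1%, 4.95%, 3.60%, 3.63%, 5.94% and 5.34% were lower on that scale at days 1 to 14. The shares higher at days 3, 5, 7 and 10 were 77.2%, 77.3%, 84.2% and 33.8%. By its construction this scaling lifts genes wherever the fibre markers fell.

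With a 2-fold minimum, members higher became 3, 2, 1, 2 and 2 at days 3, 5, 7, 10 and 14 and lower 1, 1, 1, 1 and 0, and every step between consecutive sampled days had 0. Context genes higher became 5, 7, 9, 10, 7 and 8 at days 1 to 14 and lower 9, 12, 11, 14, 5 and 0. Members lower at the step to day 5 became 5 with quantile normalization and with a trended prior, 4 without the dimmest genes and 1 with the 2-day fits; at the step to day 7 they became 1 with equal array medians and with the 2-day fits and 4 with a trended prior. Members lower became 2 at day 1 with a trended prior and without the dimmest genes, 2 at day 10 with quantile normalization, and 1 at day 14 with quantile normalization and the 2-day fits. Without the left pool of day 0 together with the day 1 right pool they became 2 at day 10 and 1 at day 14. The cause of these shifts was not tested. Equal array medians moved the median of all genes by -0.11 at day 3, -0.12 at day 5 and -0.13 at day 7.

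Leaving out 1 pool gave members lower of 1 to 2 at day 1, 2 to 4 at day 10, 1 to 2 at day 14, 4 to 8 at the step to day 3, 0 to 5 at that to day 5 and 0 to 7 at that to day 7, members higher of 2 to 9 at the step to day 10 and 0 to 3 at that to day 14, and context genes lower of 13 to 22 at day 14. Across genes, the correlation of the left minus right differences of 2 days ran from -0.58 to 0.44, with a median of -0.06. It was over 0.1 for 9 of the 21 pairs of days. Such a correlation compares different days, so it cannot tell whether right and left pools at any single day share mice. With side as a replicate block, 1 call of the members was lost (Xirp2 from day 7 to day 10), and 10760 genes rather than 10970 were called at day 1.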
